A study of Drosophila melanogaster with 2 samples.

Results

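The peaks described here are the 531 regions bound by the fly protein tiptop (tio) that lay between genes and away from start sites. These members of the peak list were chosen by position alone, though with earlier results of these data known. From the 3793 peaks on genome build dm6 that passed the authors' irreproducible discovery rate (IDR) threshold, a filter on rank agreement between replicates, those were taken whose summit fell outside every annotated gene span. The summit also had to lie over 1 kb from every annotated transcription start site (TSS), with transposable elements left out of the annotation. They made up 14.0% of the IDR peaks (exact 95% binomial interval 12.9 to 15.1%). The other IDR peaks comprised 820 intergenic peaks within 1 kb of a TSS, 1029 peaks inside a gene span within 1 kb of a TSS and 1413 peaks inside a gene span farther away. All intervals given here cover counting error only.

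The study profiled the binding of tio in whole Drosophila melanogaster embryos by chromatin immunoprecipitation and sequencing (ChIP-seq). The 2 biological replicates form 1 group: both are embryos 4 to 24 h old, of both sexes together, from a transgenic line that expresses tio with GFP at its C-terminal end, immunoprecipitated with an antibody against GFP. Chromatin had been sheared to fragments of 200 to 800 bp. With 1 group there is no comparison between conditions, and chromatin from all tissues and ages of the collection was mixed, so the cell types behind a peak cannot be told apart. The number of reads behind each peak is unknown.

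Tio binds DNA through zinc fingers and is related by gene duplication to teashirt (tsh), which shapes the trunk segments of the embryo. Intergenic sequence in the fly holds many enhancers, the stretches of DNA through which transcription factors control genes at a distance, and genes that direct development are often flanked by long intergenic stretches with several enhancers. A peak in such sequence shows where a protein was recovered with the DNA, not which gene, if any, it controls.

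The sequences of 8 intergenic peaks are given because the results on signal, gaps and sequence content refer back to them. Each is a window centred on the summit, read 5′ to 3′ from the RefSeq genome sequence of the same build. Capitals mark TCAGTG or its reverse complement CACTGA, the 6-base string followed in the results on sequence, and 3 strings that transcription factors are known to bind: TAATTA (homeodomain proteins), CATATG (basic helix-loop-helix proteins) and GGTCACACT (M1BP). The first 4 windows are among the highest signals, and the fifth is the highest in the gap with the most peaks. In the last 3 the longer string TCTCAGTG reads away from the summit.
lncRNA:CR45695 (dm6, chr2L:1638763-1638963, plus strand): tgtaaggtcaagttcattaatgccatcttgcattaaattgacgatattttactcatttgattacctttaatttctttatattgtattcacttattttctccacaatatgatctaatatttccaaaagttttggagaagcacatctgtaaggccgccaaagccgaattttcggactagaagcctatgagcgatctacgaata
CG31668 (dm6, chr2L:2202303-2202503, plus strand): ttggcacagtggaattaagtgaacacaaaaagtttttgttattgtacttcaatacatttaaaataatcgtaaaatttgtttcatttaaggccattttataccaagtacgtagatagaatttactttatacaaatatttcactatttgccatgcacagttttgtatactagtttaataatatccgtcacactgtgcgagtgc
Rh5 (dm6, chr2L:12006712-12006912, plus strand): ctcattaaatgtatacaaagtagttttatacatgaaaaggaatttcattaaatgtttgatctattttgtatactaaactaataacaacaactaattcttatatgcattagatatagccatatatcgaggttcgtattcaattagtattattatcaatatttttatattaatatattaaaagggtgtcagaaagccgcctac
stck (dm6, chr3R:8355655-8355855, plus strand): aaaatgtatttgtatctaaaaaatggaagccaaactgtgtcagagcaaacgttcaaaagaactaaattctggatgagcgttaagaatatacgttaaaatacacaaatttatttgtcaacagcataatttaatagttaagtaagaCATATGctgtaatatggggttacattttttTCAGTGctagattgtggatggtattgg
CG43245 (dm6, chr3L:10752671-10752871, plus strand): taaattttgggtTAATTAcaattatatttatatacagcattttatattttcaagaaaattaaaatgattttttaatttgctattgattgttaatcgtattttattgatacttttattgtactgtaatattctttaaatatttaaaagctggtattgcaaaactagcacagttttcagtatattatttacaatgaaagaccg
slp2 (dm6, chr2L:3832401-3832699, plus strand): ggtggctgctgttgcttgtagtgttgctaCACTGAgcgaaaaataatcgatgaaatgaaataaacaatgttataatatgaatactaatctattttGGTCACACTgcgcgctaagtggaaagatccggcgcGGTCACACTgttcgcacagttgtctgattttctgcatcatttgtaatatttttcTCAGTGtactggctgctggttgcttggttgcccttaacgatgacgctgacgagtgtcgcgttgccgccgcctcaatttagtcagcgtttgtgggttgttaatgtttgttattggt
lncRNA:CR45303 (dm6, chr2L:14502613-14502911, plus strand): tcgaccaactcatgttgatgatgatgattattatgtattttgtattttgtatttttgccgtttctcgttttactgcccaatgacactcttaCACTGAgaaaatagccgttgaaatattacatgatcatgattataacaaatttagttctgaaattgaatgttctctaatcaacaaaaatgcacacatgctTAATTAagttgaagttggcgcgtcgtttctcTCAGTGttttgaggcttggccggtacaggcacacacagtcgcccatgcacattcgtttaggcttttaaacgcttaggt
CG43401 (dm6, chr2L:1433756-1434054, plus strand): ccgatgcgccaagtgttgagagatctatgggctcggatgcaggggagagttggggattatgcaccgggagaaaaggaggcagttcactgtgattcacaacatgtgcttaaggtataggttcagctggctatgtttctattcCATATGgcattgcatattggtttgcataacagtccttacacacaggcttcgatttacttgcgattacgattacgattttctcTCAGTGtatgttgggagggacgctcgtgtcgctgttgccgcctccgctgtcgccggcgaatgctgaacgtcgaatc
The first 3 windows hold no capital letters. Their G+C content was 33.3%, 29.4% and 24.4%, and that of the fifth was 20.4%. The slp2 window holds GGTCACACT in 2 copies, and a TCAGTG string on either side of its summit that reads outward. The lncRNA:CR45303 window also holds an outward string on each side.

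The intergenic peaks were weaker than the rest of the list. Signal is the authors' own value per peak, on a scale that no source states, and it served only to rank and describe peaks. In the pooled data the median signal of the 531 peaks was 127 (quartiles 102 and 174, lowest 87.6, highest 1051), beside 150.2 for the other 3262 IDR peaks. In replicate 1 the medians were 69.0 for the intergenic peaks and 79.9 for the others, and in replicate 2 they were 61.9 and 72.6. Both replicates thus gave the same order, with quartile ranges that overlap widely (52.9 to 97.2 against 58.1 to 127 in replicate 1). Only 3 of the 100 highest IDR peaks were intergenic and away from a TSS, and 197 of the 1896 highest. No test was made of this difference, since peaks are not replicates.

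The share of intergenic peaks grew down the ranks. Among the 380 highest-signal IDR peaks 19 were members (5.0%, exact interval 3.04 to 7.70%), and among the lowest 379 there were 70 (18.5%, 14.7 to 22.8%). The authors' pooled list, which continues below the IDR list to 29999 regions on the main arms and includes background, carried this on: with the list cut by rank into 10 bins of 3000 regions (2999 in the last), 12.9% of the first bin were intergenic and over 1 kb from a TSS, 20.9% of the next, 23.5% of the third, and 25.6 to 28.0% from the fourth on. Sequence that meets the same rule, called eligible here, makes up 25.1% of the main arms (33.6 Mb of 134 Mb), so the share among the lower-ranked regions was close to the share of the genome. Over the IDR list there were 15.8 members per Mb of this sequence and 32.5 IDR peaks per Mb outside it.

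**Figure D1:**
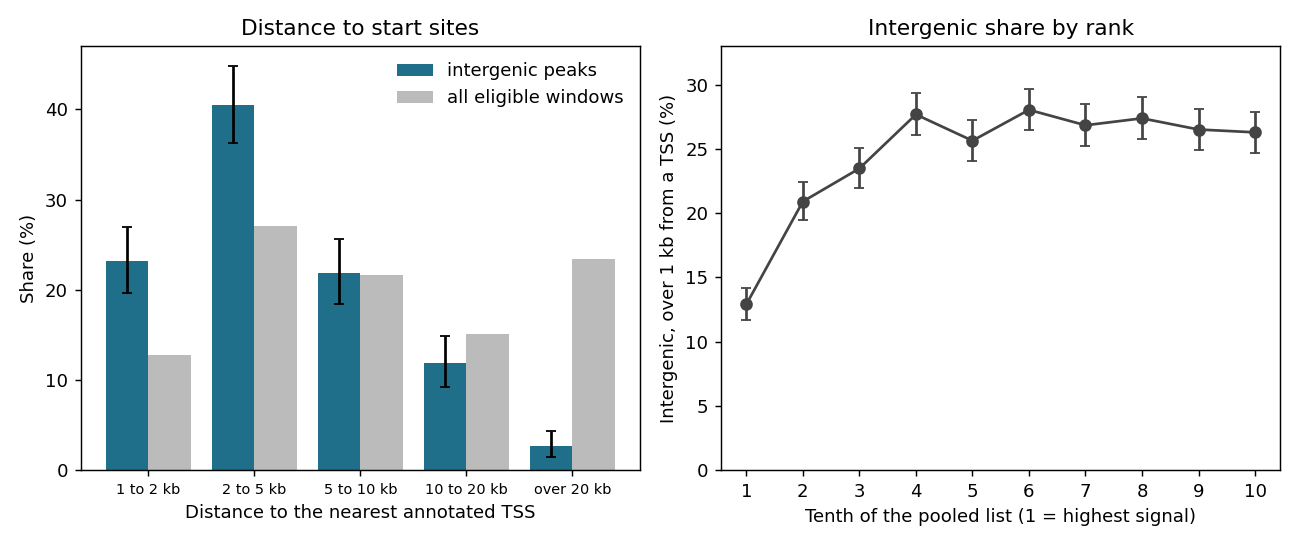
Left, share of the 531 intergenic peaks (blue, bars with exact 95% intervals) and of all windows of eligible intergenic sequence (grey) by distance to the nearest TSS. Right, share of regions that were intergenic and over 1 kb from a TSS in each of the 10 rank bins of the pooled list, with exact 95% intervals. It rose from 12.9% in the highest bin to 20.9% in the next and stayed between 25.6 and 28.0% from the fourth on.

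A summit within 100 bp was found in both replicate lists for 493 of the 531 intergenic peaks (92.8%), and 2 had one in neither list. The IDR filter rewards rank agreement, so a high share is partly set by how the list was made, and it was 92.3% for the other IDR peaks. Of the 493 peaks, 24 (4.87%) had replicate signals over 2-fold apart, beside 4.94% of all IDR peaks matched in both lists. The share was thus that of the list as a whole. In 16 of the 24 replicate 1 was the higher. On the log2 scale replicate 1 exceeded replicate 2 by a median of 0.17 (SD 0.47 over peaks). Spearman's rho between the replicate signals was 0.672 over these 493 peaks, which share their libraries, so it describes the points and is given no p. It was 0.805 over the other IDR peaks found in both lists. The SD of their log2 ratio was about the same, at 0.465. Their signals spread more widely, with replicate 1 quartiles of 58.1 and 127 against 52.9 and 97.2 for the intergenic peaks.

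**Figure D2:**
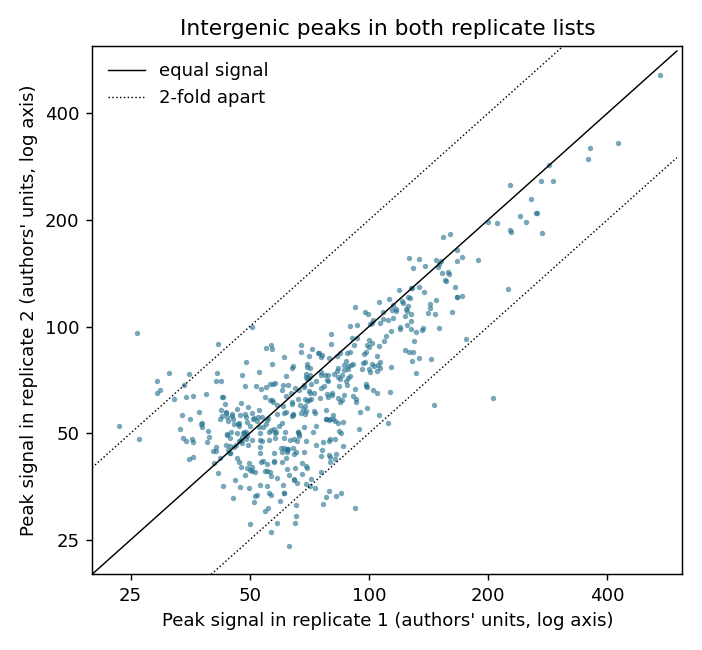
Signal of the 493 intergenic peaks found in both replicate lists, replicate 1 against replicate 2 on log axes; the solid line marks equal signal and the dotted lines a 2-fold difference. The points scatter more at low signal, and 24 lie beyond the dotted lines.

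The 2 strongest intergenic peaks lay on 2R in gaps that each have a Polycomb group gene at one end, though the gene at the other end was nearer. The highest, at chr2R:13035318, reached 1051 on the pooled scale, while replicate 1 gave 545 and replicate 2 gave 514. It lay in the gap between Su(z)2, which encodes a Polycomb group protein, and CG13323, 11938 bp from the nearest TSS, that of CG13323. The second, at chr2R:12958218, had a signal of 761 (426 and 330 in replicates 1 and 2). It lay between CG13321, whose TSS was the nearest at 4665 bp, and Psc, the Polycomb group gene that neighbours Su(z)2 and is related to it in sequence. Another of the 10 highest, at chr2R:12959273, lay in that same gap with a signal of 479 (266 and 209). These gaps held 4 members each, with signals from 102 to 761 beside Psc and from 101 to 1051 beside Su(z)2.

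The other peaks among the 10 highest lay beside genes of varied roles. The third had a signal of 687 (362 and 319) and lay between blw, which encodes a subunit of the mitochondrial ATP synthase, and CycB, a mitotic cyclin. The fourth, the first window printed above, had 651 (357 and 297) and lay 8300 bp from the TSS of lncRNA:CR45695. The nearest protein-coding gene on that side is chinmo, which encodes a BTB zinc finger protein of neuron and stem cell identity. The CG31668 peak had 570 (285 and 286), and the Rh5 peak, 1341 bp upstream of a gene for a photoreceptor opsin, had 555 (292 and 258). The stck peak had 523 (272 and 258) and lay 1223 bp from the TSS of the gene for the integrin adhesion protein PINCH. The slp2 peak, between the forkhead segmentation genes slp1 and slp2, had 484 (256 and 229.6), and the CG33453 peak 483 (227 and 252). In each of the 10 both replicate signals were above 200.

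At the edge of the rule, the members nearest the 1 kb limit were the peaks of CG33080 (1010 bp, signal 112) and CG14207 (1023 bp, 209). The intergenic summits just inside it, which are not members, were those of CG43131 (992 bp, 167) and ex (986 bp, 96.5). Values on either side of the limit overlap.

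The intergenic peaks lay closer to start sites than the eligible sequence as a whole. Their median distance to the nearest TSS was 3851 bp (quartiles 2116 and 6881 bp), beside 6878 bp for the 164058 windows, as long as the peak windows, that tile the eligible sequence. Of the peaks 23.2% lay 1 to 2 kb from a TSS, against 12.8% of the windows, and 40.5% lay 2 to 5 kb away, against 27.0%. Beyond 20 kb there were 14 peaks (2.64%, exact interval 1.45 to 4.38%), against 23.4% of the windows. Windows without transposable elements gave 22.0% there and a median of 6473 bp. Median signal was 145 in the 1 to 2 kb class and 120 to 124 in the classes farther out. Only 2 peaks (0.377%) had their summit in an annotated transposable element, though such elements make up 11.4% of the eligible sequence. The windows reached up to 566975 bp from a TSS. Whether reads could be placed uniquely in all windows and elements was not examined, so these contrasts may not reflect binding alone.

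The peak farthest from any gene lay 48960 bp from CG40498 on 2R, with a signal of 111 (50.97 in replicate 1 and 54.9 in replicate 2). The next 2 lay in the gap between NijA and CG43245, 36664 and 31860 bp from the nearest gene. The first of them had a signal of 230.2, with 115.0 in replicate 1 and 115.1 in replicate 2. The second had 336, with 176 in replicate 1 and 92.5 in replicate 2.

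The genes at the edges of these gaps were more often divergent than for the windows. Of the peaks 26.2% lay in a gap flanked by 5′ ends on both sides, against 19.3% of windows, 25.05% lay between 3′ ends, against 26.65% of windows, and the rest lay between genes in tandem. The nearest gene was a non-coding RNA gene for 32.96% of the peaks and 23.9% of the windows, and a tRNA gene for 13 peaks (2.45%) and 0.728% of the windows.

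Arms differed in density. Arm 3L held 192 of the peaks (36.2%) on 25.2% of the eligible sequence, or 22.7 per Mb, and 2L held 120, or 19.7 per Mb. The density was 12.96 per Mb on 3R, 10.8 on 2R and 10.2 on X, and arm 4 held 3 peaks. Median signal was 136 on 2L, 129 on 3L and 3R, 122 on 2R and 112 on X.

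Gaps differed in how many peaks they held. Of the 3759 gaps between annotated genes with eligible sequence, 369 (9.82%) held a peak. One peak was found in 270 of them, 2 peaks in 65, 3 in 20 and 4 or more in 14, so that 261 of the 531 peaks (49.2%) shared their gap with another. Another IDR summit lay within 1 kb of 13.6% of the intergenic peaks and of 23.8% of the other IDR peaks, and the median distance to the nearest one was 5051 bp against 3798 bp. The intergenic peaks were thus spaced more widely than the rest of the list. Their windows are not all separate: 27 peaks had another IDR summit within 250 bp, and the closest pair was 199 bp apart.

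The gap with the most peaks runs for 75.05 kb on 3L from NijA, which encodes a ninjurin cell surface protein, to CG43245. Its 10 peaks had signals from 94.3 to 474, and all lay in the part of the gap nearer CG43245. The second, 19.1 kb between lncRNA:CR44363 and CG7560, held 9 peaks with signals from 88.8 to 283, or 4.72 per 10 kb. The third, 32.96 kb between tRNA:Ile-TAT-1-2 and CG13898, held 6 with signals from 96.9 to 341. On 2L, the 20.9 kb between lncRNA:CR44603 and lncRNA:CR45695, whose protein-coding neighbours are RFeSP and chinmo, held 5 with signals from 139 to 651. The fifth, 28.7 kb between lncRNA:CR44730 and lncRNA:CR44731, also held 5, with signals from 88.3 to 280. Its protein-coding neighbour on the right is noc, which encodes a zinc finger protein of head and appendage development. None of the 5 gaps held any other IDR peak.

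**Figure D3:**
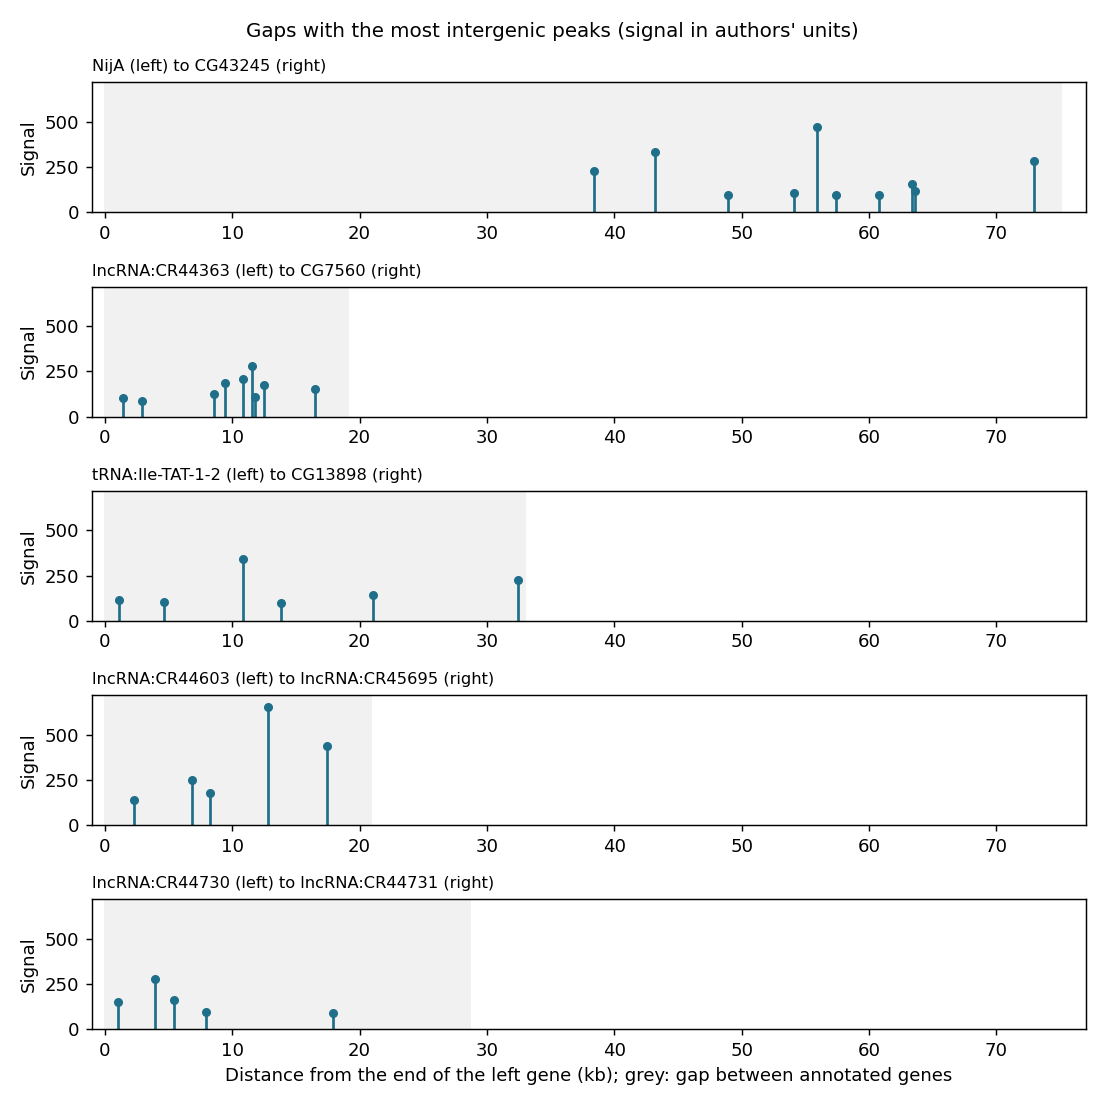
Position (kb from the end of the left gene) and pooled signal of each intergenic peak in the 5 gaps with the most peaks, all on the same axes; grey marks the gap. The 10 peaks between NijA and CG43245 all lie on the side of CG43245, and the highest of the peaks drawn, at 651, lies between lncRNA:CR44603 and lncRNA:CR45695.

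Genes that direct development bordered these peaks more often than protein-coding genes at large. A protein-coding gene is said to border a peak, and the peak to lie beside it, when it is the first such gene on either side. The TSS of another gene can be nearer. Of the 4580 protein-coding genes that border eligible sequence, 608 (13.3%) bordered a peak. Over 14 lists of regulator and signalling genes the count was 57 of 153 (37.3%). Long gaps give such genes more room, so density is given too: the sequence they border held 25.5 peaks per Mb, against 16.1 for all protein-coding genes. Their 81 peaks had a median signal of 131, beside 127 for all members. Neighbours such as slp1 and slp2 share peaks, so the genes are not independent of each other. Genes such as wg, ptc and esg are on more than 1 list and recur in the counts below, but count once in the 57. The lists were chosen with earlier results of these data known, so the contrast is not independent of the data either. Counting only the gene with the nearest TSS of any kind gave 22 genes of these lists, and 265 of all protein-coding genes.

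The pair-rule, segment polarity, Hox and gap genes set up the body plan of the early embryo. Of 16 pair-rule and segment polarity genes 6 bordered a peak, at 29.2 peaks per Mb: hry, odd, slp1, slp2, wg and ptc. The gap with wg, which encodes the Wnt ligand Wingless, and Wnt4 held a peak with a signal of 200.4 (98.2 in replicate 1 and 67.8 in replicate 2), and wg bordered 4 peaks in all. Of 8 Hox genes 3 bordered a peak, and the highest was beside abd-A, which sets abdominal segment identity, at 242 (119 and 127). The nearest TSS to that peak was that of lncRNA:CR45750, at 1686 bp, and by the nearest TSS 0 Hox genes were counted. Of 12 gap and terminal genes 4 bordered a peak, with the highest beside ems, a head gap gene, at 159 (88.5 and 71.6).

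Tsh, the paralog of tio, bordered 1 peak, with a signal of 168 (105 in replicate 1 and 64.9 in replicate 2). This peak lay between tsh and CG11629, 8494 bp from the nearest TSS, that of lncRNA:CR44917. In the list of tsh, hth, a homeodomain partner of Hox and teashirt proteins, bordered 2 peaks, the higher at 129 (72.7 and 57.8). Thus 2 of the 3 genes of this list that could be counted bordered a peak. Their sequence held 18.5 peaks per Mb, near the background. Of 17 genes of appendage and eye patterning 6 bordered a peak, and the highest was beside toy, a Pax6 gene, at 202 (110.5 and 94.4). Their density of 12.1 per Mb was below the background.

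Among genes of nervous system, mesoderm and gut the counts were similar or higher. Of 14 neural fate genes 7 bordered a peak (34.6 per Mb): pros, esg, SoxN, D, nerfin-1, zfh2 and scrt. The highest was beside zfh2, a zinc finger homeodomain gene, at 299.9 (149.1 in replicate 1 and 146.9 in replicate 2). Of 20 mesoderm and muscle regulators 7 did, led by bin, a forkhead gene of the visceral mesoderm, at 353 (225 and 128). Mid, a T-box gene, bordered 4 peaks with signals up to 302. Of 9 regulators of Malpighian tubule and hindgut 5 did, at 51.2 peaks per Mb, the highest density of the 18 lists. That density comes from 13 peaks on 0.254 Mb, and their median signal was 104.5, beside 127 for all members. The genes of this list were fkh, drm, sob, esg and Dr, and Dr, a homeobox gene, bordered 5 peaks with signals from 89.9 to 145. The highest of this list was beside sob, a zinc finger gene of the odd-skipped family, at 169.6 (99.0 and 67.8), in the gap it shares with odd. Of 9 regulators of trachea, epidermis and midgut 4 did, led by vvl, a POU gene of the trachea, which bordered 5 peaks with signals up to 248 (141 and 109).

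Genes of signalling pathways, from ligands to feedback inhibitors, were counted in the same way. Of 20 secreted ligand genes 9 bordered a peak (25.8 per Mb), and besides wg, Wnt4 and Wnt6 these were dpp, vn, pyr, ths, upd1 and upd3. The peak beside dpp, a BMP ligand gene, had a signal of 108 (65.2 in replicate 1 and 39.9 in replicate 2). Of 13 receptors and feedback inhibitors 5 did, the highest beside fz, a Wnt receptor gene, at 419 (227 and 187). Sty, which encodes the feedback inhibitor Sprouty, bordered 4 peaks with signals from 93.9 to 221. Of 13 ecdysone and nuclear receptor genes 5 did, led by Blimp-1, which encodes a zinc finger repressor, at 194 (114 and 76.9). Of 21 genes on a list of Iroquois, tailup and other homeobox genes 6 did, led by Awh, a LIM homeobox gene, at 223 (130 and 91.3). Of these 6, tup, C15, B-H1 and B-H2 were also counted on lists above. The sequence bordered by the genes of this list held 18.4 peaks per Mb, near the 16.1 for all protein-coding genes.

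The remaining lists had shares below 13.3%, most of them from small counts. Of 7 GATA factor and hemocyte genes none did, though they border only 0.0581 Mb of eligible sequence. Of 46 adhesion genes of the dpr, DIP, beat and side families 4 did, at 2.95 peaks per Mb, and of 23 ribosomal protein genes 2 did, at 3.63 per Mb. Of 92 chemosensory receptor genes 7 did (9.47 per Mb), and of 62 cuticle protein genes 4 did (13.9 per Mb). The highest peaks of these families were beside dpr17 at 320 (167 in replicate 1 and 153 in replicate 2), Gr93d at 256 (128 and 129), Cpr76Ba at 186 (106 and 88.0) and RpLP0 at 120 (48.5 and 68.1).

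**Figure D4:**
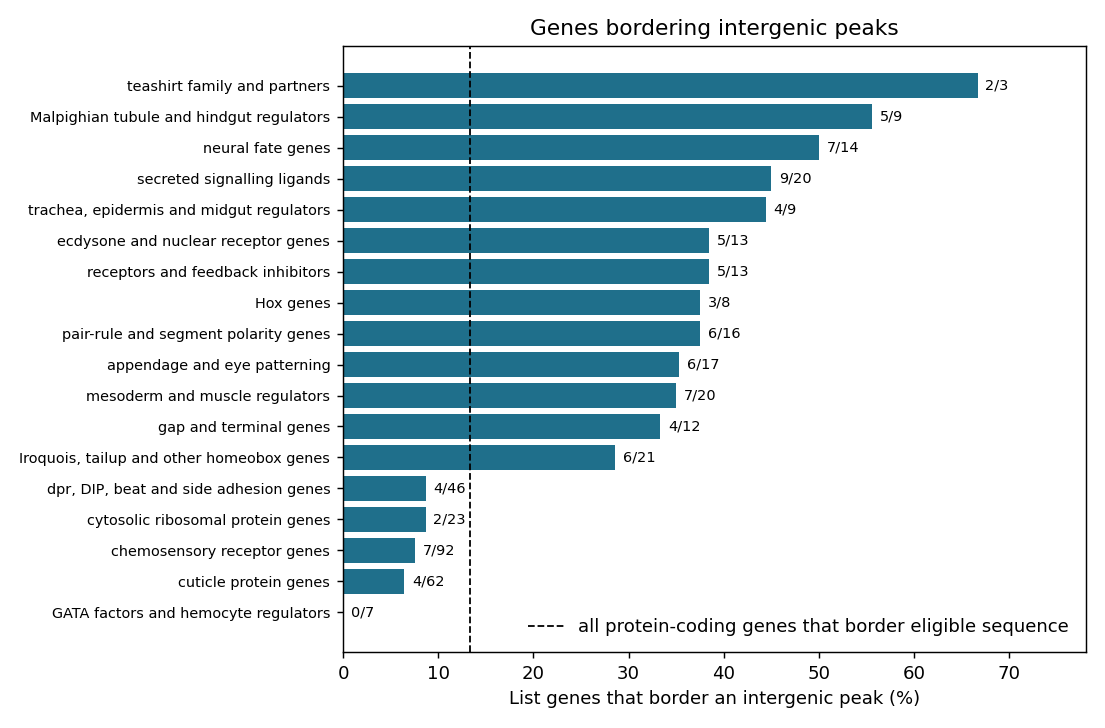
Share of the genes of each list that border an intergenic peak, among those that border eligible sequence (counts beside the bars); the dashed line marks 13.3%, the share over all protein-coding genes. The 13 lists above the line hold regulator and signalling genes, while the 4 other families and the GATA and hemocyte list lie below it.

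The intergenic peaks were poor in G and C at the summit. Over windows of 100 bp to each side of the summit the median G+C content was 34.3% (mean 34.6%, SD 5.58 over peaks), beside 43.3% in windows 500 bp to either side and 41.3% in all eligible windows. In 439 of the 531 peaks (82.7%) the summit window lay below the mean of its flanks. The other IDR peaks had a median of 33.3%, so the dip was not peculiar to intergenic sequence. In steps of 25 bp the mean fell to 31.4% at the summit and reached 46.5% at its highest in the flanks.

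In the same windows 21 strings, most of them cores of known binding sites, were counted on both strands. TTAAAA was found in 48.4% of the intergenic peak windows, 28.8% of flank windows and 32.5% of eligible windows. TAATTA was in 18.5% (15.25 to 22.0%), 12.5% and 14.1%. CATATG was in 9.42% of the peaks, 8.85% of flanks and 5.64% of eligible windows. Its share was 6.09% in the members among the 1896 highest-signal IDR peaks and 6.69% without replicate 1. CACACAC and CAGCTG ran the other way. CACACAC was in 2.82% of the peaks (exact interval 1.59 to 4.62%), 8.66% of flanks and 5.99% of eligible windows, but in 5.08% of the members among the 1896 highest-signal IDR peaks, and CAGCTG in 3.77%, 6.69% and 6.88%. TGACAG, the core of Homothorax sites, was in 6.03% (4.16 to 8.40%), 9.32% and 8.59%. GGTCACACT was in 3 peaks (0.565%, 0.117 to 1.64%), beside 0.0942% of flanks and 0.0927% of eligible windows. The other IDR peaks had TTAAAA in 54.97% of their windows, TAATTA in 19.25%, CATATG in 8.83%, CACACAC in 4.51%, CAGCTG in 7.39%, TGACAG in 5.79% and GGTCACACT in 0.552%. These contrasts with flanks and eligible windows were thus, apart from CAGCTG, largely shared by the rest of the list. CAGCTG was in 8.49% of the IDR peaks within 1 kb of a TSS. In those inside genes and farther away it was in 5.945%, just above the exact interval of the intergenic peaks (2.32 to 5.76%).

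The 21 strings were chosen with earlier results of these data known, and CAGTGC was among them as a 6-base string without a named factor. Its place among them is thus not independent of these data. CAGTGC was the commonest of the 21 strings to be found at over 2 times its share in flanks and in eligible windows. It was in 119 of the 531 windows (22.4%, exact interval 18.9 to 26.2%), beside 7.44% of flanks, 8.42% of eligible windows and 15.4% of the other IDR peaks. Of those others, peaks within 1 kb of a TSS had it in 12.66%. Peaks inside genes and over 1 kb from a TSS had it in 18.97%, which lies within the interval of the intergenic peaks. Among 6-base strings with at least one C or G that were present in at least 5% of the peaks, AGTGTA came first by its ratio to eligible windows, at 24.5% of the peaks against 7.39% of eligible windows without transposable elements. Such strings overlap in TCAGTG, and from that ranking TCAGTG and the longer TCTCAGTG were chosen, with these data in view, to look at their direction.

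The copies read away from the summit. Within 200 bp of the 531 summits TCTCAGTG occurred 79 times with its 3′ end pointing outward and 6 times pointing inward (92.9% outward). In the eligible windows the counts were 1149 and 1157. An outward copy was present in 70 intergenic peaks (13.2%, exact interval 10.4 to 16.4%) and an inward copy in 6 (1.13%). The median distance of an outward copy from the summit was 78.5 bp (upper quartile 116 bp), and 8 peaks had outward copies on both sides, as in the lncRNA:CR45303 window. With the shorter TCAGTG the counts were 205 outward and 46 inward, with an outward copy in 161 peaks (30.3%). The direction was not peculiar to intergenic peaks, but the share with a copy differed. In IDR peaks inside genes and over 1 kb from a TSS the counts of TCTCAGTG were 120 and 7, and 8.21% had an outward copy (6.83 to 9.77%). In IDR peaks within 1 kb of a TSS they were 85 and 7, and 4.44% had one (3.54 to 5.47%). In intergenic regions of the lower-ranked part of the pooled list the counts were 60 and 44, and 1.47% had one.

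The peaks with an outward TCTCAGTG had a median signal of 118, against 129 for the 461 peaks without it, and their G+C content was 34.8% against 34.3%. The letters TCAGT are known as part of the initiator element at fly start sites. Among the IDR peaks within 1 kb of a TSS, 0 of the 85 outward copies of TCTCAGTG lay within 5 bp of an annotated TSS. Of the shorter TCAGTG, 8 of 357 outward copies (2.24%) and 4 of 177 inward copies did in the same peaks. For the intergenic peaks the rule that chose them allows none. A link of the strings to start sites was not tested.

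**Figure D5:**
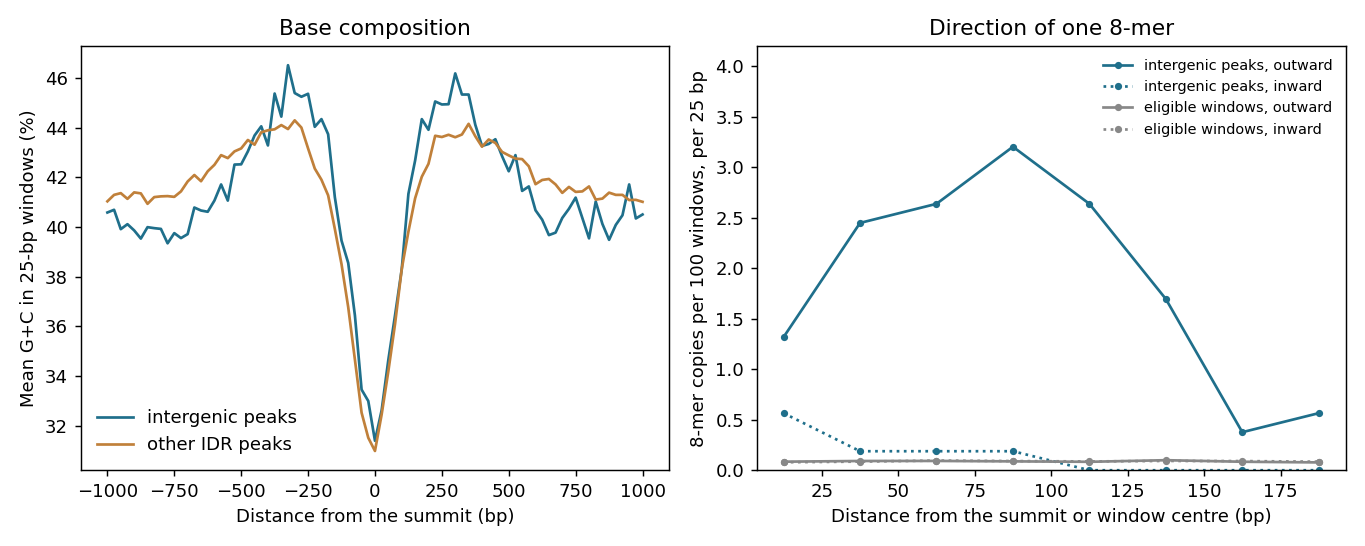
Left, mean G+C content in 25-bp windows by distance from the summit for the 531 intergenic peaks (blue) and the other IDR peaks (brown). Right, copies of TCTCAGTG per 100 windows in each 25 bp of distance from the summit, reading outward (solid) or inward (dotted), in intergenic peaks (blue) and eligible windows (grey, centre in place of summit); G+C dips to 31.4% at the summit, and outward copies outnumber inward ones 79 to 6.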

How the data were processed

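The peak lists of build dm6 were used, as deposited. Per the notes deposited with each sample, the authors made each replicate list from that replicate's alignments and a control, the pooled list from both replicates, and the IDR list from these. Which aligner, peak caller and IDR cutoff were run is not given in the sources used here. The deposited signal of each peak is the authors' own value on an unstated scale, and its summit is the deposited offset added to the start. The deposited −log10 q column, made by the authors, supports no result here. The control library and the lists of build dm3 were not analysed here. Depth is unknown.

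Summits were placed on the Ensembl BDGP6.54 annotation (release 115) over 6 arms, and sequence was read from the RefSeq genome of the same build. Replicate summits were matched within 100 bp. Eligible sequence was cut into windows of 201 bp, 100 bp to each side of a centre, as background. Shares have exact binomial intervals. No test was made, because 1 group allows none and peaks are not replicates. The replicates are separate biological samples per the labels. The genes named are the 10 highest peaks, the 5 fullest gaps, the 3 farthest peaks, the peaks nearest the limit, and for each list the gene with the highest peak; further list members named with values were chosen after their values were seen. Members, gene lists and strings were chosen with earlier results of these data known. The 18 gene lists hold 14 lists of regulators and 4 gene families, and 1 listed symbol matched no gene. Scripts were tested on simulated data. Python 3.11.15, numpy 2.4.6, pandas 2.3.3, scipy 1.17.1 and matplotlib 3.10.9 were used.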

Additional observations from a re-analysis of the deposited data

How the results depend on the processing

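Of the recomputed values other than string shares and directions, 40 stayed within the counting interval of the value reported, or within 1.5 times for counts, and 16 moved. With the 1896 highest-signal IDR peaks, the share of intergenic peaks was 10.4%, their median signal 203, the share found in both replicate lists 98.0%, the share over 2-fold apart 2.07%, the median TSS distance 3461 bp and the number of gaps 151. A limit of 500 bp from TSSs gave a share of 17.3% and a distance of 2972 bp, and a limit of 2 kb gave 10.8% and 4846 bp. With protein-coding genes only they were 18.5% and 5662 bp. Matching within 50 bp found 72.7% in both lists and within 250 bp found 100%. Windows of 50 bp each side had a median G+C content of 32.7%. Of the 21 string shares 16 moved with these shorter windows 3 with the highest-signal peaks (CATATG 6.09%, CACACAC 5.08%, TATCGATA 0%) and 1 without replicate 1 (CATATG, 6.69%). The gene with the nearest TSS gave 22 list genes in place of 57. Without replicate 1 or 2, using as many of the highest regions of the other list, the share was 13 to 13.3%, the distance 3793 to 3909 bp, the number of gaps 340 to 344 and G+C 33.8 to 34.8%. Median signal and matching between replicates have no value with a replicate left out, since replicate and pooled signals differ in scale. The direction of TCTCAGTG, examined with alternatives chosen after seeing the data, was 92.9 to 93.5% outward without a replicate, 91.4% in the stronger intergenic peaks and 81.7% for TCAGTG. No paired analysis was possible because the study has 1 group. The distances, gaps and neighbours depend on the annotation, and the peaks on a list whose threshold and depth are unknown.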
